A study of Mus musculus with 4 samples.

Results

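The 68 genes described here are the mouse solute carriers of the Slc1, Slc2, Slc7, Slc30, Slc38 and Slc39 families, which move glucose and other hexoses, amino acids and zinc across membranes. They were picked by a rule on gene symbols from the 21951 protein-coding genes of the GENCODE M21 annotation (GRCm38), with Slc38a4 left out by the rule. The choice was made with earlier results of these data known. Slc1 held 7 members, Slc2 held 12, Slc7 held 15, Slc30 held 10, Slc38 held 10 and Slc39 held 14. All 68 were followed, and none was removed by a filter.

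Liver and yolk sac of E14.5 mouse embryos were each profiled by PRO-seq in 2 libraries. The method maps RNA polymerases engaged in transcription by letting them extend their nascent RNA in isolated chromatin. Both tissues came from the same kind of cross and carried the same background, mixed C57BL/6h and CAST/EiJ in the strain label. C57BL/6J females were mated with mixed-background males that carried only CAST/EiJ alleles at Dlk1/Gtl2 on chromosome 12. Each library was a pool of tissue from 6 embryos, flash frozen and ground before chromatin was isolated, so the 2 libraries of a tissue show the spread between pools and not between embryos. No label says whether one embryo gave tissue to both a liver and a yolk sac pool.

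The deposited value is a list of dREG peaks per library, each with a position and a score. dREG is a classifier that finds transcription start regions, promoters and enhancers alike, from run-on reads. The liver lists held 24863 and 24333 peaks, the yolk sac lists 50525 and 43055. The read depth is unknown, so a longer list and a deeper library cannot be told apart. The score has no unit and was not scaled between libraries. It is given below as the percentile of a peak within its own list, and such ranks from lists of different lengths show no change in level.

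Solute carriers are named by family and each family has a division of labour. Slc2 proteins (the GLUT family) let hexoses down their gradient, and Slc2a1 is the broadly expressed form and Slc2a2 that of liver and absorptive epithelia. Slc1 proteins carry glutamate or small neutral amino acids with sodium. Slc7 holds the cationic amino acid carriers and the light chains that pair with the heavy chains Slc3a1 and Slc3a2, and Slc38 holds the sodium-coupled neutral amino acid carriers. Slc39 (ZIP) proteins bring zinc into the cytosol, from outside or from vesicles, and Slc30 (ZnT) proteins take it out. In the mouse conceptus the visceral yolk sac absorbs maternal nutrients for the embryo, and the fetal liver is the main site of red cell formation.

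A tissue-only call meant a peak within 500 bp of a start in both libraries of one tissue and in neither library of the other. The stretches below are shown because they lie just before starts at which members had tissue-only, uneven or missing calls, described further on, except that of Slc30a4, which was called in all 4 libraries and is shown for its metal response element cores. They come from RefSeq windows of 250 bases before and 50 after a start (GRCm38.p6), cut to the bases before the start that no GENCODE transcript marks as untranslated region, and they are written 5′ to 3′ on the gene's strand. Capitals mark the GC box GGGCGG and the hypoxia response core ACGTG on either strand in the Slc38a5 stretch, and the GC box alone in those of Slc30a3, Slc1a6 and Slc7a15. They mark the metal response element core (TGCACNC or TGCGCNC, either strand) in those of Slc30a10 and Slc30a4, and the amino acid response core TGATGCA, either strand, in that of Slc7a11.
Slc38a5 (chrX:8271261-8271380, plus strand): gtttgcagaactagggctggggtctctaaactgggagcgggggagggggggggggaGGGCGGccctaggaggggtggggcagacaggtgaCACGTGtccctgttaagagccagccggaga
Slc30a3, internal start (chr5:31093616-31093777, minus strand): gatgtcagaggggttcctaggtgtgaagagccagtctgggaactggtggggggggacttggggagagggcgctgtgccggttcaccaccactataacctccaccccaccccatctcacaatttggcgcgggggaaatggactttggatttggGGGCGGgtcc
Slc1a6 (chr10:78780246-78780495, plus strand): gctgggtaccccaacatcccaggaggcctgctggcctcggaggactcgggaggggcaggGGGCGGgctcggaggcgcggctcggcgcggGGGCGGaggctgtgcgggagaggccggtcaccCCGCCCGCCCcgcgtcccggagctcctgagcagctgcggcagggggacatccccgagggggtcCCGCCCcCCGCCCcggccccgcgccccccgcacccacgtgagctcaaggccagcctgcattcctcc
Slc7a15, internal start (chr12:8539567-8539816, minus strand): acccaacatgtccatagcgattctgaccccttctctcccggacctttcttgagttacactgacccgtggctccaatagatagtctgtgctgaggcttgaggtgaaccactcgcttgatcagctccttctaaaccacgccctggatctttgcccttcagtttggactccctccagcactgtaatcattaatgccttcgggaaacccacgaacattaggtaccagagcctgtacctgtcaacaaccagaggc
Slc30a10 (chr1:185454598-185454847, plus strand): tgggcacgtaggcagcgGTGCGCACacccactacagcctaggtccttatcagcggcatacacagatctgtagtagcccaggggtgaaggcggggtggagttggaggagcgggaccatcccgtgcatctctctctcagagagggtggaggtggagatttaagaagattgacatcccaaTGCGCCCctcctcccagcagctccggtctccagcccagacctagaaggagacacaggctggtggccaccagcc
Slc30a4 (chr2:122702664-122702913, minus strand): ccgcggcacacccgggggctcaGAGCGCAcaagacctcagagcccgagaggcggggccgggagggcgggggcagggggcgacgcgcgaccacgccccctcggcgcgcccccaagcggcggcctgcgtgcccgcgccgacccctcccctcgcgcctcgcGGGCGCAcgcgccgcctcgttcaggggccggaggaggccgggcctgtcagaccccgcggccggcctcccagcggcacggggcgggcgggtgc
Slc7a11 (chr3:50443615-50443863, minus strand): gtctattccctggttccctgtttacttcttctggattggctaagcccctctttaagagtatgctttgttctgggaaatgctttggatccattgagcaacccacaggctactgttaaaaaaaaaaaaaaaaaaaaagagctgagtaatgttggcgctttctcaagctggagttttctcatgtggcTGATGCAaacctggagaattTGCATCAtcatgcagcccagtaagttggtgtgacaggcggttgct
In the first the E-box CACGTG holds the hypoxia core on both strands, so its 2 matches overlap. The Slc1a6 stretch holds the same E-box and the Slc30a10 stretch 1 hypoxia core, both left in lower case. Matches to cores not named for a stretch were left unmarked. The Slc1a6 stretch held 6 GC boxes and the Slc7a15 stretch none. Slc30a10 held 3 metal response cores, 2 of them overlapping, and Slc7a11 held 2 amino acid response cores in opposite directions. A match describes letters and is no evidence of a bound factor.

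Most of the transporter genes had a promoter peak in both tissues. Of the 68 members, 48 and 50 had one in the liver libraries and 54 and 53 in the yolk sac libraries. These were 70.6%, 73.5%, 79.4% and 77.9% of members, beside 56.1%, 57.9%, 63.8% and 62.4% of all protein-coding genes. The mean was 49 ± 1.41 (SD, n = 2) in liver and 53.5 ± 0.707 (SD, n = 2) in yolk sac. The difference of 4.5 members was larger than the spread between replicates, with an exact two-sided permutation p = 0.333 (0.444 after Benjamini-Hochberg adjustment over 8 comparisons). With 2 libraries against 2 that is the smallest p possible, so no tissue comparison here could pass a threshold. The sign depended on list length: with each list held to its 24333 highest-scoring peaks, 48 and 50 members were called in liver and 46 and 51 in yolk sac, a difference of -0.5. The difference over all protein-coding genes turned as well, with 12267 and 12706 called in liver and 11678 and 12417 in yolk sac.

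By pattern, 44 members were called in all 4 libraries (64.7%, against 53.8% of all protein-coding genes) and 11 in none (16.2%, against 34.2%). Liver-only calls were made for 2 members (2.94%, against 1.01%) and yolk-sac-only calls for 6 (8.82%, against 5.25%). The other 5 were called in 1 or 3 libraries (7.35%, against 5.73%). With lists of equal length the tissue-only counts were 5 and 5 (7.35% each), against 3.01% and 2.61% of all protein-coding genes. These are counts of few genes and are given as descriptions.

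**Figure D1:**
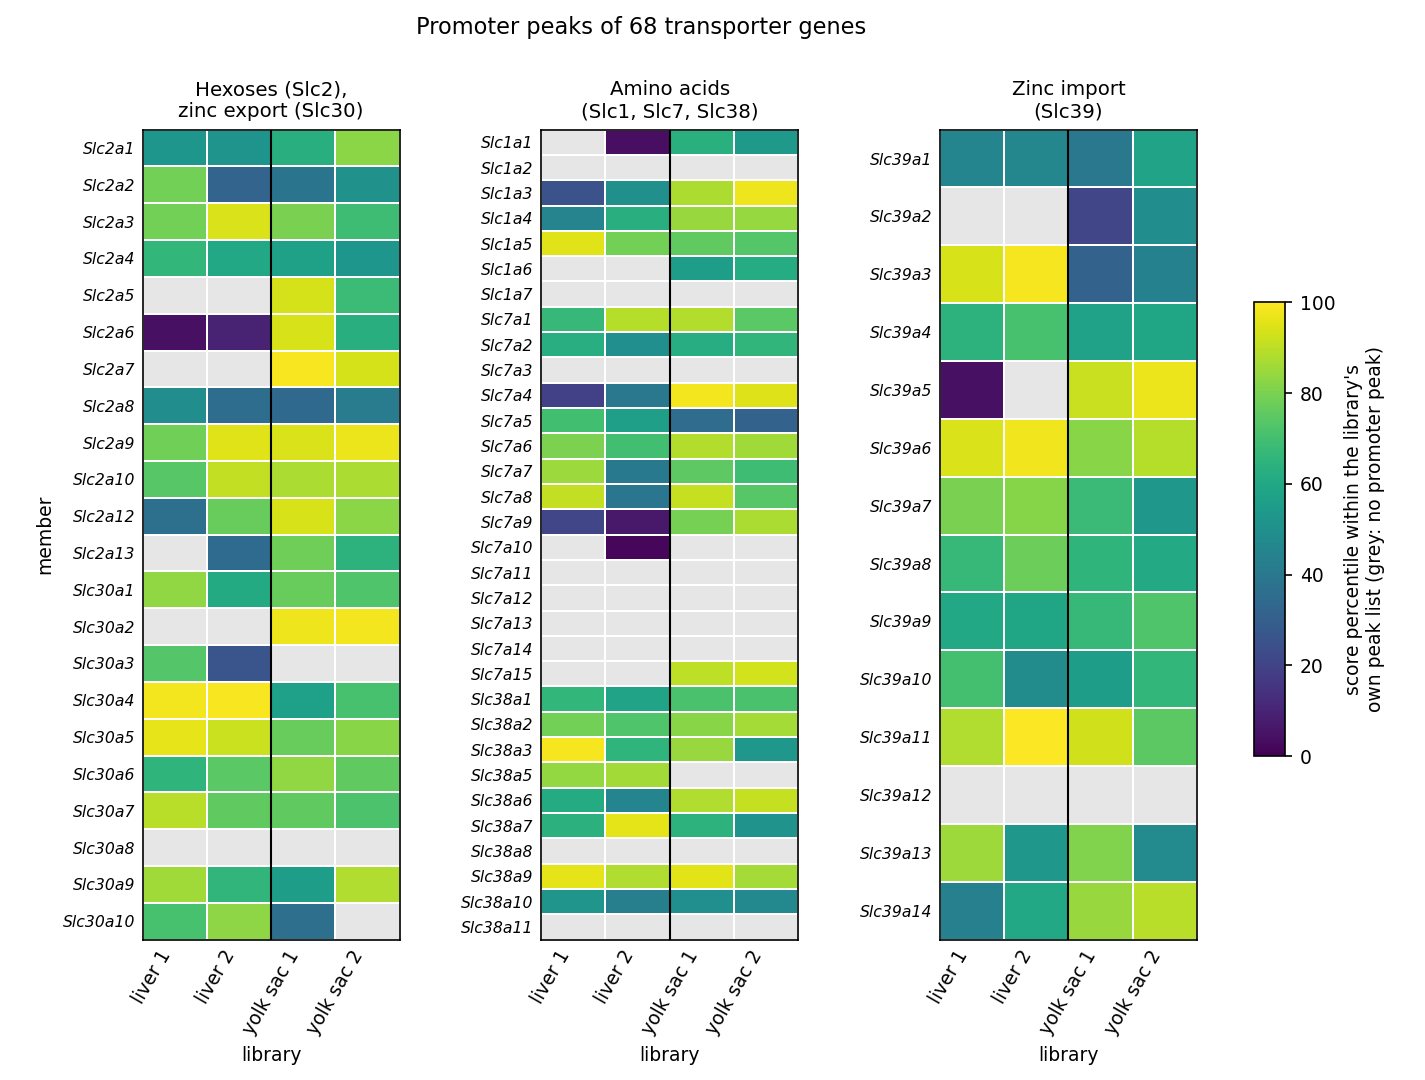
Score percentile of the highest-scoring promoter peak of each of the 68 members (vertical axis) in each library (horizontal axis), from 0 to 100 within that library's own list. Grey marks no promoter peak; 11 members are grey throughout, Slc30a3 and Slc38a5 are grey in yolk sac only, and 6 members are grey in liver only.

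With every annotated start counted, the hexose carriers were the one family called in full in a tissue. All 12 Slc2 members had a promoter peak in both yolk sac libraries, against 9 and 10 in liver (9.5 ± 0.707, SD, n = 2; exact permutation p = 0.333, adjusted 0.444). In lists of equal length the family had 9 and 10 in liver and 10 and 11 in yolk sac. Slc2a5 carries fructose, and Slc2a7 is its neighbour on chromosome 4 and close relative. Both had yolk-sac-only calls, Slc2a5 at percentiles 93.6 and 68.1 and Slc2a7 at 99.1 and 93.6.

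Both calls lay inside the genes and not at the first start. The Slc2a5 peak was at a start 9663 bp downstream of the gene's first, and the Slc2a7 peak at one 8856 bp downstream. Only non-coding transcript models begin there (a processed transcript and a retained intron). With the starts of coding transcripts alone neither gene was called in any library, so the family was then not called in full in yolk sac. The RefSeq windows of the 2 genes overlapped no peak in any library.

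Slc2a1 (GLUT1), the broadly expressed glucose carrier, was called at percentiles 52.7 and 51.9 in liver and 62.9 and 82.4 in yolk sac. Slc2a2 (GLUT2), a low-affinity carrier, was at 78.7 and 32.0 in liver and 38.4 and 50.1 in yolk sac, and Slc2a3, a high-affinity carrier, at 78.6, 94.3, 79.8 and 69.0 in the same order. Slc2a8, an intracellular form, was at 49.1, 35.3, 34.0 and 41.1. For each of these genes the peak was present in every library. When lists were held to equal length, Slc2a8 lost both yolk sac peaks, Slc2a2 lost that of yolk sac replicate 1, and the Slc2a1 percentiles overlapped between tissues.

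The highest lowest percentiles of the family were those of Slc2a9, a urate carrier, and Slc2a10. Slc2a9 was at 78.4 and 95.1 in liver and 94.5 and 97.0 in yolk sac, at a start 22837 bp inside the gene, and Slc2a10 was at 73.6, 90.9, 87.2 and 87.2. Slc2a13, a proton-coupled inositol carrier, was missing from liver replicate 1 and at 34.7 in liver replicate 2, 77.8 and 64.4 in yolk sac. Slc2a6 was at 4.20 and 9.61 in liver and 93.9 and 62.9 in yolk sac. In lists of equal length it was at 2.12, 9.61, 87.4 and 34.4. Slc2a4, the insulin-responsive form of muscle and fat, was at 65.9, 60.04, 56.9 and 52.5, and Slc2a12 at 36.6, 76.7, 93.9 and 82.5.

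**Figure D2:**
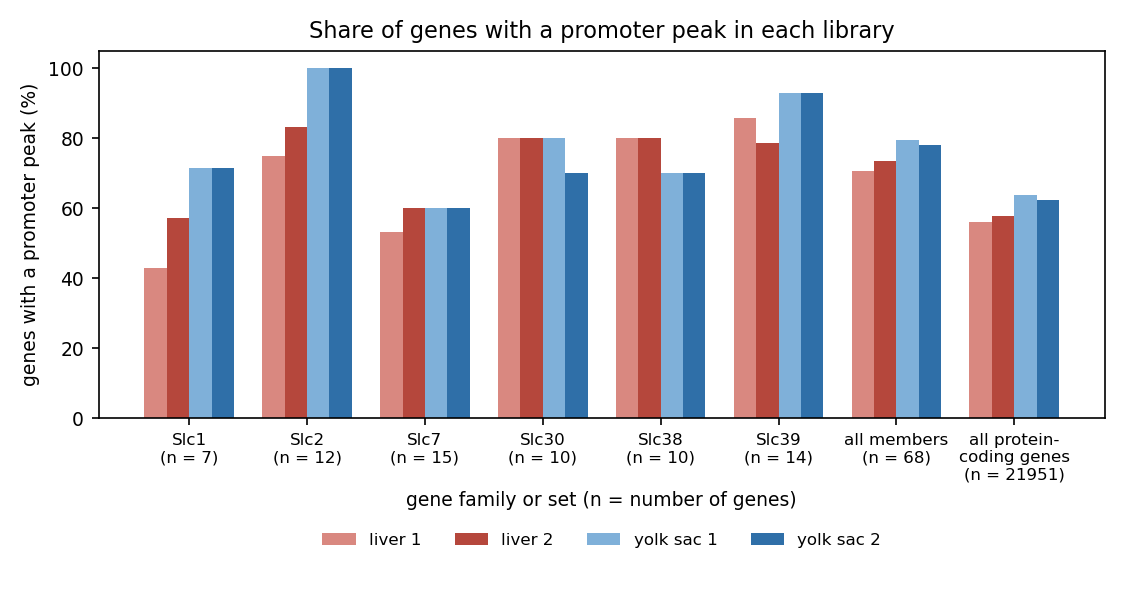
Share of genes with a promoter peak (vertical axis, percent) in each library for the 6 families, all 68 members and all 21951 protein-coding genes; bars are single libraries. Slc2 reaches 12 of 12 in both yolk sac libraries with every annotated start counted, those of non-coding transcripts included. Slc38 is the family with fewer members called in each yolk sac library (7 and 7) than in each liver library (8 and 8).

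Among the amino acid carriers, Slc38 was called in 8 and 8 members in liver and 7 and 7 in yolk sac (exact permutation p = 0.333, adjusted 0.444). In lists of equal length the counts were 8, 8, 6 and 7, where Slc38a10 also lost its peak in yolk sac replicate 1. In the full lists a single gene made the difference. Slc38a5, a carrier of glutamine and other neutral amino acids, had a liver-only peak at percentiles 83.8 and 86.2. The peak spanned chrX:8271301-8273002 in replicate 1 and chrX:8271351-8272652 in replicate 2, over the Slc38a5 start. The nearest yolk sac peak was 17931 bp away in replicate 1 and 17981 bp in replicate 2. The liver-only call held with windows of 250 and 1000 bp, in the higher-scoring 50% of each list, in lists of equal length and without each library in turn. It was lost when the peak's midpoint had to lie in the window.

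Slc38a2, the amino acid starvation-responsive carrier, was at 78.8 and 72.6 in liver and 82.2 and 86.6 in yolk sac. Slc38a9, a lysosomal arginine sensor, was at 95.8, 87.9, 95.3 and 86.4, the highest lowest value in its family with any start counted. Its 2 yolk sac values came from a start 74859 bp downstream of the first. At the first start group of Slc38a9 yolk sac was at 67.3 and 54.8, below every Slc38a2 value. Slc38a1 was at 65.7, 57.8, 71.3 and 71.3, and Slc38a3, the system N carrier of liver cells, at 98.5, 65.1, 84.5 and 53.2. Slc38a8 and Slc38a11 had no promoter peak in any library. The nearest peak to a Slc38a8 start was 3443 bp away in both yolk sac libraries and 53493 bp or more in liver.

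Slc1 was called in 3 and 4 members in liver and in 5 and 5 in yolk sac (exact permutation p = 0.333, adjusted 0.444), and these counts were the same in lists of equal length. Slc1a4 and Slc1a5, the neutral amino acid exchangers, were called throughout, Slc1a4 at 45.2, 63.2, 84.5 and 84.1 and Slc1a5 at 95.0, 78.6, 75.4 and 73.1. Of the glutamate carriers, Slc1a6 was yolk-sac-only at 55.1 and 61.6, with the nearest liver peaks 6949 and 6849 bp from its start. Slc1a1 was absent from liver replicate 1, at 3.80 in liver replicate 2 and at 63.6 and 53.7 in yolk sac. Slc1a3 was called throughout, at 25.1 and 49.99 in liver and 87.7 and 97.3 in yolk sac. Slc1a2 and Slc1a7 had no promoter peak.

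Slc7 was called in 8 and 9 members in liver and 9 and 9 in yolk sac, a difference within the spread of the liver libraries (exact permutation p = 1), and in lists of equal length the sign turned, with 8 and 9 in liver and 8 and 8 in yolk sac. Its cationic carrier Slc7a1 was at 66.9, 89.0, 88.7 and 74.3, and the light chain Slc7a6 at 80.4, 69.6, 88.3 and 85.8. The light chain Slc7a5 (LAT1), which pairs with Slc3a2 to exchange large neutral amino acids, was at 69.7 and 56.2 in liver and 35.0 and 31.3 in yolk sac. Its 2 yolk sac peaks dropped out in lists of equal length. Slc7a8, another partner of Slc3a2, was at 90.8, 39.2, 91.4 and 73.5.

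Slc7a9, the partner of Slc3a1 in absorptive epithelia, was at 20.9 and 6.44 in liver and 79.2 and 87.1 in yolk sac. Slc3a1 itself was yolk-sac-only, and Slc3a2 was called in all 4 libraries. Slc7a4 was at 18.9, 39.9, 98.3 and 94.9. The yolk-sac-only member of the family was Slc7a15, at 89.9 and 93.0, at a start 59500 bp inside the gene. Its first start had no peak. Slc7a10 had a single peak, at percentile 1.73 in liver replicate 2. Slc7a3, Slc7a11, Slc7a12, Slc7a13 and Slc7a14 had none.

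Zinc importers (Slc39) were called in 12 and 11 members in liver and 13 and 13 in yolk sac (exact permutation p = 0.333, adjusted 0.444). Zinc exporters (Slc30) were called in 8 and 8 in liver and 8 and 7 in yolk sac (exact permutation p = 1). In lists of equal length the Slc39 difference was 0, from 12, 11, 10 and 13 members, and the Slc30 counts were 8, 8, 7 and 7. Whether the 2 families differ was not tested.

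Slc39a4, the importer of absorptive epithelia, was called throughout at 64.1, 70.8, 57.7 and 59.0. Slc39a5, an importer of the basolateral membrane of such epithelia, was at 3.98 in liver replicate 1, absent from liver replicate 2 and at 91.5 and 97.1 in yolk sac. Slc39a14, an importer of zinc and iron in liver cells, was at 43.3, 60.1, 84.4 and 89.3, and Slc39a8, its close relative, at 67.0, 77.5, 65.1 and 60.5. Slc39a2 had a yolk-sac-only peak, at percentiles 21.0 and 48.5, and it was not called in the higher-scoring 50% of each list. In lists of equal length it kept a peak in yolk sac replicate 2 alone, at percentile 8.83. Slc39a3 was at 94.0 and 98.8 in liver and 31.3 and 43.7 in yolk sac. In lists of equal length it lost the peak of yolk sac replicate 1 and was at 0.33 in replicate 2. Slc39a6 (94.3, 97.8, 82.2 and 88.8) and Slc39a11 (88.1, 99.5, 92.6 and 74.9) had the highest lowest percentiles, and Slc39a12 had no promoter peak. The Slc39a11 value in yolk sac replicate 2 came from a start 84300 bp downstream, and its first start group was at 65.4 there.

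Slc30a1, the exporter of the cell surface, was at 83.5, 60.6, 76.7 and 72.6. Slc30a2, an exporter into vesicles, had yolk-sac-only peaks near the top of both lists, at 97.3 and 98.2. The nearest liver peaks lay 52642 and 35229 bp from it. Slc30a10, an exporter of manganese, was at 70.9 and 83.2 in liver, at 36.0 in yolk sac replicate 1 and absent from yolk sac replicate 2. Slc30a10 was liver-only in lists of equal length. Slc30a4 was at 98.4 and 98.9 in liver and 56.5 and 71.0 in yolk sac. Slc30a5 (96.1, 92.1, 76.6 and 82.0) and Slc30a7 (89.4, 75.6, 75.7 and 71.6), which load zinc into the secretory pathway, had the highest lowest percentiles. Slc30a8, the exporter of insulin granules, had no promoter peak.

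Slc30a3, which loads zinc into synaptic vesicles in neurons, had a liver-only peak at percentiles 73.3 and 26.5. It spanned chr5:31093101-31093802 in replicate 1 and chr5:31093301-31093602 in replicate 2, and lay at a start 14622 bp inside the gene. Yolk sac replicate 1 had a peak 700 bp from the nearest Slc30a3 start, so that with a window of 1000 bp the call was no longer liver-only. It was also not made in the higher-scoring 50% of each list.

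Over the members called in a library, the median percentile was 70.5 and 61.9 in liver and 77.3 and 72.3 in yolk sac. Over all protein-coding genes called, the medians were 67.6, 67.0, 71.6 and 72.0. A promoter peak was shared with the start of another protein-coding gene at 6 members, Slc30a7 with Extl2, Slc38a6 with Trmt5, Slc39a6 with Elp2, Slc39a7 with Rxrb, Slc39a9 with Erh and Slc39a11 with Cog1. Starts of genes that are not protein-coding also shared peaks, in some or all libraries. They were BC048644 at Slc7a5, 1700034H15Rik at Slc30a1, 4930417H01Rik at Slc30a4 and Gm2061 at Slc30a10. Others were Gm38144 at Slc38a2, Gm11769 at Slc38a10, Gm20427 at Slc39a7 and, in yolk sac replicate 1, Gm25361 at Slc39a5. At all these members the peak cannot be assigned to the member alone.

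Alternative starts added tissue contrasts that the gene-level calls hid. The annotated starts of the 68 members, joined where neighbours lay within 1000 bp, made 168 start groups, with 48 members holding more than 1. Of these groups 48 (28.6%, against 26.5% of all start groups of protein-coding genes) were called in all 4 libraries and 90 (53.6%, against 62% of all) in none. Liver-only groups numbered 3 (1.79%, against 1.19%) and yolk-sac-only groups 15 (8.93%, against 4.93%). Of the 100 groups after a member's first, 12 were yolk-sac-only (12%, against 4.76% of such groups of all protein-coding genes) and 2 liver-only (2%, against 1.36%). In lists of equal length the yolk-sac-only groups numbered 9, and with starts of coding transcripts alone 5. Shares over all start groups were not computed under either setting, so neither count can be read against a background.

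Slc7a7, a light chain of Slc3a2 that exports cationic amino acids from absorptive epithelia, had peaks at more start groups than most members. Its first start group was called at percentiles 85.2 and 40.4 in liver and 57.4 and 41.4 in yolk sac. Another group, 7159 bp downstream, was called at 23.9 and 31.4 in liver and 75.2 and 68.9 in yolk sac. Thus the highest-scoring peak of Slc7a7 lay at the first start group in both liver libraries and at the downstream one in both yolk sac libraries. A further group 33613 bp downstream was yolk-sac-only at 59.4 and 48.5.

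Slc38a9 showed the same kind of contrast. Its first start group was at 95.8 and 87.9 in liver and 67.3 and 54.8 in yolk sac, and a start of a processed transcript 74859 bp downstream was yolk-sac-only at 95.3 and 86.4. Slc2a3 had a yolk-sac-only group 58720 bp downstream at 67.6 and 68.2, Slc2a2 one at 23614 bp (28.6 and 44.1), Slc2a12 one at 3997 bp (87.5 and 27.9) and Slc38a10 one at 8562 bp (44.5 and 47.0). Slc38a3 had one at 12269 bp (15.0 and 51.2) and Slc30a6 one at 6304 bp (45.2 and 22.6). The yolk-sac-only group of Slc39a13, 1546 bp downstream, was covered by the same peak as its first group, and the liver-only group of Slc1a5, 3398 bp downstream, by the same liver peak as the first 2. Those 2 groups had no peak of their own. The other liver-only groups were those of Slc30a3 and Slc38a5. The other yolk-sac-only groups were those of the 6 yolk-sac-only members.

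**Figure D3:**
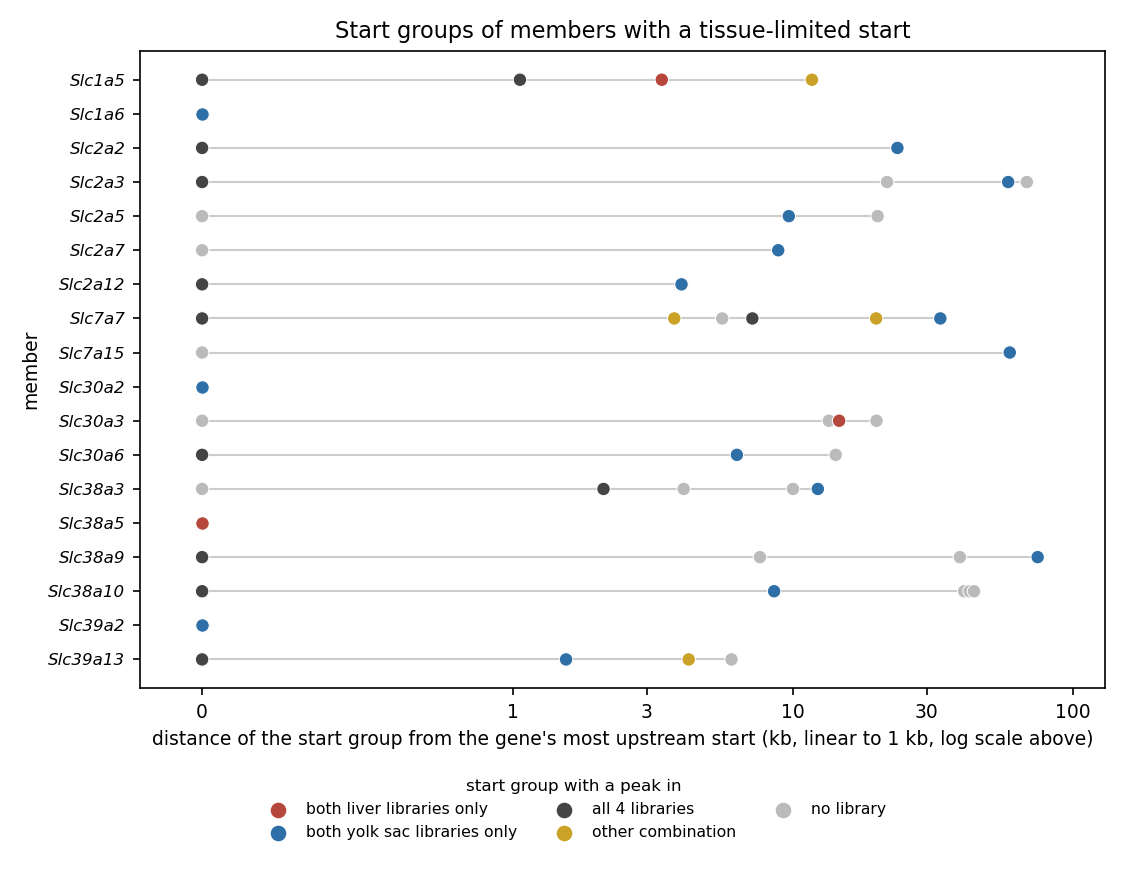
Start groups (points) of the 18 members with a liver-only or yolk-sac-only start group, placed by distance from the gene's most upstream start (horizontal axis, kb, linear to 1 kb and logarithmic above). Colour gives the libraries with a peak there; in Slc2a5, Slc2a7, Slc7a15 and Slc30a3 the first start is grey (no library) and the called start lies downstream.

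The width of promoter peaks separated several amino acid carriers between tissues. Among the 44 members called in all 4 libraries, both liver peaks were wider than both yolk sac peaks at 10 (22.7%, against 20.9% of all such protein-coding genes) and narrower than both at 16 (36.4%, against 34.5%). These shares were near the background, so the values below describe single genes. Each peak is the highest-scoring one of the gene, and at 40 of the 44 members the 4 peaks shared bases.

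At Slc1a5 the peak spanned 4452 and 4152 bp in liver and 1502 and 1252 bp in yolk sac, a ratio of 3.12 between the tissue means. At Slc2a4 it spanned 4202 and 4202 bp in liver and 1652 and 1202 bp in yolk sac (ratio 2.94), and at Slc7a5 2602 and 2402 bp against 1302 and 1002 bp (ratio 2.17). At Slc39a8 the widths were 4052 and 3802 bp in liver and 2952 and 2852 bp in yolk sac. In all 4 genes the libraries of the tissues did not overlap.

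Slc7a9 was at the other end, with 302 and 302 bp in liver and 2102 and 1802 bp in yolk sac (ratio of yolk sac to liver 6.46). Slc38a6 spanned 1652 and 1452 bp in liver and 3002 and 2902 bp in yolk sac, and Slc7a8 1252 and 952 bp against 2302 and 2152 bp. The Slc7a7 widths of 952 and 652 bp in liver and 2952 and 2902 bp in yolk sac belong to its 2 different start groups.

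**Figure D4:**
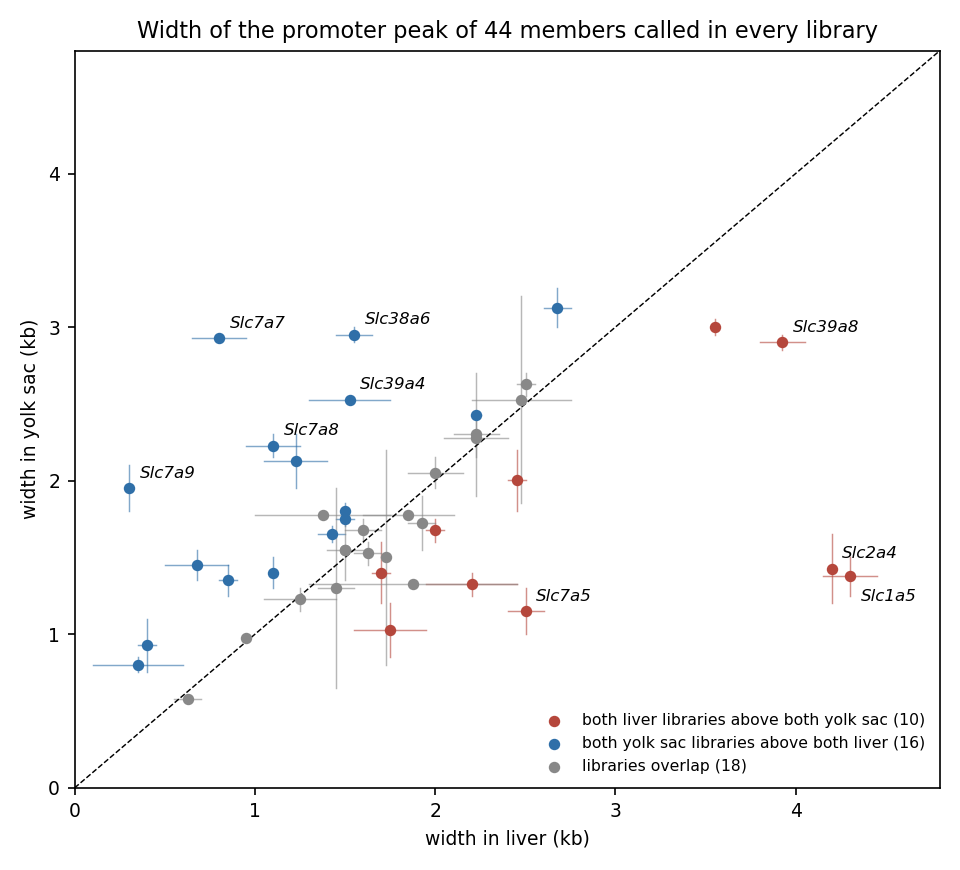
Width of the highest-scoring promoter peak in liver (horizontal axis, kb) against yolk sac (vertical axis, kb) for the 44 members called in every library; points are means of 2 libraries and lines join the 2 single values. Slc1a5 and Slc2a4 lie far to the right of the dashed line of equal width, and Slc7a7, Slc7a9 and Slc38a6 lie above it.

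Peaks inside the genes, outside every annotated start window, were mostly found in yolk sac. The members' gene bodies held 18 and 23 such peaks in liver (20.5 ± 3.54, SD, n = 2) and 91 and 72 in yolk sac (81.5 ± 13.4, SD, n = 2), a ratio of 3.98 or 1.99 on the log2 scale. The groups did not overlap (exact permutation p = 0.333, adjusted 0.444). Over all protein-coding genes the ratio was 2.63, or 1.40 on the log2 scale. In lists of equal length the members held 17 and 23 in liver and 34 and 37 in yolk sac, a log2 ratio of 0.83, while over all protein-coding genes it was -0.25. Both yolk sac libraries exceeded both liver libraries at 18 members (26.5%, against 16.9% of all protein-coding genes), and the reverse occurred at 0 members (against 3.38%).

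Merged across libraries these peaks gave 109 regions in 38 members, of which 86 lay within introns and 23 overlapped an exon. Some of the peaks counted above fell in none of these regions and are not in the shares below. Slc38a7 had 1 such peak in liver replicate 2 but held no region, and Slc39a8 had 1 in yolk sac replicate 2 but held only a liver-only region. Yolk-sac-only regions numbered 53 (48.6%, against 39.2% of all gene-body regions), liver-only regions 7 (6.42%, against 8.82%) and regions called in all 4 libraries 7 (6.42%, against 6.76%). The zinc importer Slc39a11 and the amino acid carriers Slc7a8 and Slc38a1 held the most.

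Slc38a1 held 9 regions, with no peak in either liver library and 8 and 10 in the yolk sac libraries. The highest was an intronic one 7787 bp from the start (chr15:96634501-96635752), at percentiles 99.0 and 97.8 in yolk sac. Its promoter was called in all 4 libraries. Slc7a8 held 13 regions, 2 and 1 peaks from the liver libraries and 13 and 10 from the yolk sac libraries, 8 of the regions yolk-sac-only. Slc39a11, a gene of 405 kb, held 15, 1 and 2 peaks from liver and 11 and 10 from yolk sac, 9 of the regions yolk-sac-only.

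Slc7a11, which takes up cystine in exchange for glutamate, had no promoter peak in any library but held 8 gene-body regions. All were called in yolk sac alone, 4 of them in both yolk sac libraries. They lay 431263 to 534488 bp from its start, in the far part of an annotated span of 551 kb. Another gene model, Gm37854, covers 1 of them.

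Slc2a3 held 6 regions and showed peaks of both tissues, with 3 from each liver library and 5 and 4 from the yolk sac libraries. The 7 liver-only regions were in Slc2a1, Slc2a3, Slc2a9, Slc7a1, Slc38a10, Slc38a11 and Slc39a8. The Slc2a1 region (chr4:119115951-119116752, 7640 bp from the start) was at percentiles 90.9 and 26.1, and the intronic Slc7a1 region (chr5:148388751-148389602) at 72.6 and 89.1. Slc7a5 held an intronic region called in all 4 libraries (chr8:121897451-121900202), at 98.4 and 97.5 in liver and 68.7 and 81.0 in yolk sac, above its own promoter peak in each library.

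**Figure D5:**
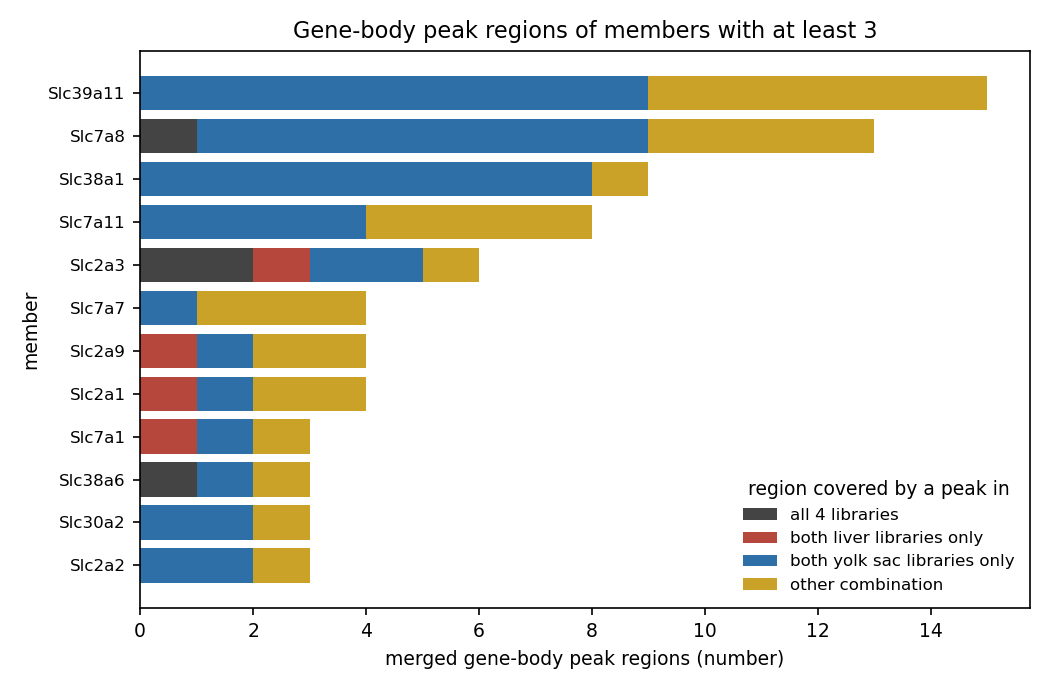
Merged gene-body peak regions (horizontal axis, number) of the 12 members with at least 3, coloured by the libraries that called them. Slc39a11 has 15, Slc7a8 13 and Slc38a1 9, mostly called in both yolk sac libraries only, and Slc2a3 has 2 regions called in all 4.

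The promoter sequences were described by letters alone. RefSeq windows of 300 bases were matched for 53 of the 68 members (66 windows) and set beside all 32851 windows of the table. The metal response element core, the letters bound by the zinc sensor Mtf1, occurred in 6 of 10 Slc30 windows and 6 of 15 Slc39 windows, against 25.7% of all windows. It occurred in 3 of 31 windows of the amino acid families (9.68%). The Slc30 members holding it were Slc30a1, Slc30a2, Slc30a3, Slc30a4, Slc30a5 and Slc30a10. The Slc30a3 match lay in the window of its first start, which had no peak, and the window at its liver-only start had no match. The amino acid response core occurred in 5 of 31 windows of the amino acid families (16.1%), against 3.15% of all windows. Those 5 belonged to Slc1a4, Slc1a7, Slc7a7 and Slc7a11, with 2 overlapping windows in Slc7a7.

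The GC box was found in 62.1% of member windows and 35.7% of all, and the TATA box TATAAA in 10.6% and 13.6%. The hypoxia core was found in 36.4% and 19.6%, the E-box in 12.1% and 7.15%, and the GATA site AGATAA in 9.09% and 11.2%. The median GC content was 58.7% in the 43 windows of members called in all 4 libraries and 55.3% in the 7 of members called in none, with CpG observed over expected of 0.67 and 0.31. These 2 medians were 58.2% and 0.60 over all member windows, 64.5% and 0.79 over the Slc30 windows, and 52.7% and 0.38 over all windows of the table. The letters of a window and its base composition are not independent, and the motif shares were not matched for composition.

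Of 49 partner, related and sensing genes, 43 and 42 were called in liver and 44 and 43 in yolk sac. These were 87.8%, 85.7%, 89.8% and 87.8%, against 56.1%, 57.9%, 63.8% and 62.4% of all protein-coding genes. In all 4 libraries 39 were called (79.6%, against 53.8%). The 17 genes of amino acid and glucose sensing, among them Mtor, Atf4 and Txnip, were all called in all 4. Mtf1, Mt1 and Mt2 were called in all 4, and Mt3 in none. Sodium-coupled glucose carriers split, with Slc5a1 yolk-sac-only and Slc5a2 liver-only. Gckr was liver-only and Hk3 yolk-sac-only.

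The tissue labels were checked with marker lists, whose part in the members' patterns was not tested. Of the erythroid markers, Tal1 and Epor had a promoter peak in every library, and Gata1, Klf1, Alas2, Epb42, Slc4a1 and Hemgn were liver-only. Hepatoblast markers were called in 8, 7, 8 and 8 of 10, and visceral endoderm markers in 8, 6, 10 and 10 of 10, with Cubn and Amn at 0 in liver. Mesenchyme markers were called in 6, 8, 9 and 9 of 10 and endothelial markers in 7, 8, 10 and 10 of 10. Of all protein-coding genes, 56.1%, 57.9%, 63.8% and 62.4% were called in the same order of libraries. In bulk tissue, fewer cells of a type and less transcription per cell cannot be told apart.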

How the data were processed

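Per the labels, PRO-seq was done on chromatin from 2 liver and 2 yolk sac pools of 6 embryos each. The authors deposited 1 dREG peak list per library, with a score for each peak. The submitters' processing notes name Bowtie2, bedtools and mm10. Other settings are not given in the sources used here. Read depth is unknown, so no counting interval is given.

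From these lists, with Python 3.11.15, numpy 2.4.6 and pandas 2.3.3, a gene was called when a peak overlapped by at least 1 bp the window of 500 bp either side of any GENCODE M21 start. Starts within 1000 bp were chained into start groups. Gene-body peaks had their midpoint in the gene and outside all start windows. Percentiles are ranks within a list. Library counts were compared by the exact two-sided permutation test. The functions returned 200 of 200 planted patterns in simulated lists.

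Values are given for members with tissue-only calls or start groups, the 2 with the highest lowest percentile per family, the 5 with most gene-body regions, members called in 1 or 3 libraries or none, and 22 chosen by role. Further members were named after their values were seen. Members and lists were chosen with earlier results of these data known. Promoter sequences are from RefSeq (GRCm38.p6). Alternatives changed the window, score filter, list length, starts, assignment rule and libraries. One erythroid marker is not reported here.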

Additional observations from a re-analysis of the deposited data

How the results depend on the processing

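The difference of 4.5 members between yolk sac and liver was 11 in the higher-scoring 50% of each list, 10.5 when a peak's midpoint had to lie in the window, 2.5 with starts of coding transcripts, 2 with the most upstream start and -0.5 in lists of equal length. It was 3.5 to 5.5 without single libraries. The 2 liver-only members became 1 with a window of 1000 bp, 4 in the higher-scoring 50%, 5 in lists of equal length and 1 with the most upstream start, and 2 to 3 without single libraries. The 6 yolk-sac-only members became 12 in the higher-scoring 50%, 3 with the most upstream start and 11 by midpoint, and 6 to 8 without single libraries. Starts of coding transcripts gave 4, since Slc2a5 and Slc2a7 were lost. The log2 ratio of gene-body peaks was 2.83 in the higher-scoring 50% and 0.83 in lists of equal length, and 1.81 to 2.18 without single libraries. The 3 liver-only start groups became 5 in the higher-scoring 50% and 6 in lists of equal length, and 3 to 5 without single libraries. The 15 yolk-sac-only start groups became 9 in lists of equal length and 5 with coding starts, and 16 to 19 without single libraries. Tissue-only shares over all protein-coding genes were computed only with the first rule (500 bp, full lists) and in lists of equal length. Those over all start groups were computed with the first rule alone. The other tissue-only counts have no background beside them and are no result about the members. The median of the lowest percentile of members called throughout was 52.7, and 39.8 in lists of equal length. By midpoint Slc30a10 turned from liver to yolk sac, with a difference of 0.5 in the share of libraries called. Its liver peaks, 2902 and 2652 bp wide, had midpoints 653 and 628 bp downstream of the start, outside the window of 500 bp. The peak of yolk sac replicate 1, 802 bp wide, had its midpoint at 153 bp. The cause of the difference in width was not tested.

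Deviations of same-numbered libraries correlated at -0.007 for promoter calls over all protein-coding genes and 0.015 over members. The calls thus gave no sign of pairing by replicate number. They cannot tell whether same-numbered pools shared embryos or handling, which no label states. With the replicate block the difference was 4.5, with an exact p of 0.5, the smallest that 2 pairs allow.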
